A study of Caenorhabditis elegans with 16 samples.

Results

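The genes described here are 10 components of the cytosolic HSP70 and HSP90 chaperone machinery of *C. elegans*, chosen by name from the 20447 genes of a count table and not by any measured value. They are the HSP70 genes *hsp-1*, *hsp-70*, *F44E5.4* and *F44E5.5*, the HSP110 gene *hsp-110*, the J-domain genes *dnj-12* and *dnj-13*, the adaptor gene *sti-1*, the HSP90 gene *hsp-90* (also named *daf-21*), and *hsf-1*, which encodes the heat shock transcription factor. All 10 were found in the table, and the choice was made with earlier results of these data known. Poly-A RNA was sequenced from whole day 1 adults of 4 strains: *daf-16(mu86); ets-4(rrr16)*, here called the *daf-16*-mutated strain, *pqm-1(ok485); ets-4(rrr16)*, here called the *pqm-1*-mutated strain, *ets-4(rrr16)* alone, and wild type (wt, N2). Each strain was sampled after 24 h at 4 °C, following 2 h of adaptation at 10 °C, and from growth at 20 °C. There were 2 replicates per group and 16 libraries, each from about 1000 pooled animals grown on OP50 bacteria. The study asked how the loss of *ets-4*, an ETS family transcription factor gene, changes expression in the cold, and what part of this depends on the transcription factors DAF-16 (the worm FOXO protein) and PQM-1. The mutations are present in all cells of the animal, so a level in whole worms is an average over all tissues.

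HSP70 proteins bind exposed hydrophobic stretches of unfolded proteins in a cycle driven by ATP. J-domain proteins deliver substrates and trigger hydrolysis of the nucleotide, HSP110 proteins release the spent nucleotide, and STI-1, the worm relative of HOP, bridges HSP70 and HSP90. HSP90 matures signalling proteins such as kinases and receptors. HSF-1 drives transcription of many of these genes, and *hsp-70*, *F44E5.4* and *F44E5.5* are known for strong induction by heat, whereas *hsp-1* and *hsp-90* are abundant without stress.

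The libraries held 36049588 to 43039567 counts in all at 4 °C and 32046029 to 48770269 at 20 °C. The mutated genes were read first, in CPM (counts scaled to a TMM-normalized library of 1e+06). At 4 °C, *ets-4* had 4.35 to 12.7 CPM in the 6 mutant libraries, against 60.3 and 84.5 CPM in wt. At 20 °C the order was turned round, with 76.9 to 202 CPM in the 6 libraries labelled as *ets-4* mutants, against 26.3 and 25.9 CPM in wt. *daf-16* had 104 and 116 CPM in the *daf-16*-mutated strain at 4 °C, against 247 and 226 CPM in *ets-4*, but 107 and 175 CPM in the libraries with the *daf-16*-mutated label at 20 °C, against 163 and 185 CPM in *ets-4*. *pqm-1* had 150 and 143 CPM in the *pqm-1*-mutated strain at 4 °C, against 221 and 269 CPM in *ets-4*, and 5.98 and 16.15 CPM in the libraries with the *pqm-1*-mutated label at 20 °C, against 20.4 and 32.8 CPM in *ets-4*. The order of *ets-4* between mutant and wt labels at 20 °C was thus the reverse of that at 4 °C. *daf-16* was not below both *ets-4* libraries in replicate 2 of the *daf-16*-mutated label. The cause of either was not tested. Every direction below that uses a strain at 20 °C, wt included, rests on these labels. Markers of germline, oocytes, embryos, sperm, intestine, muscle, epidermis and neurons were all detected, with 0 markers at 0 in all libraries, in samples labelled whole worm.

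Levels were compared between genes per kilobase of exon. *hsp-90* (WBcel235 chromosome V, 14684918 to 14688545, plus strand) averaged 1960 ± 348 CPM per kb (SD, n = 16 libraries) and *hsp-1* (chromosome IV, 17278959 to 17281330, plus strand) 1702 ± 240 CPM per kb, with overlapping ranges. These genes made up the bulk of the set: *hsp-90* and *hsp-1* together took 82.1 to 84.7% of the summed CPM of the 10 genes in every library. A middle tier followed, in which each gene overlapped its neighbour: *dnj-12* (chromosome I, 14756904 to 14758790, plus strand) at 236 ± 23.8 CPM per kb, *hsp-110* (chromosome III, 8443910 to 8446909, minus strand) at 225 ± 34.9, *sti-1* (chromosome V, 773518 to 774775, plus strand) at 189 ± 26.3 and *dnj-13* (chromosome II, 11545701 to 11547360, plus strand) at 181 ± 26.6. *hsf-1* (chromosome I, 11953507 to 11963085, minus strand) lay below them without overlap, at 49.2 ± 7.08 CPM per kb. The heat-inducible genes were at the bottom. *hsp-70* (chromosome I, 9320325 to 9322519, minus strand) averaged 0.493 ± 0.509 CPM per kb, *F44E5.5* (chromosome II, 11759662 to 11761861, plus strand) 0.0946 ± 0.0470 and *F44E5.4* (chromosome II, 11757107 to 11759311, minus strand) 0.0630 ± 0.0341, and their ranges overlapped. All 10 are protein-coding genes. *hsp-90* shares 4 exon bases with *C47E8.4* and *dnj-12* 15 with *tmem-107*, each on the opposite strand, and *dnj-13* lies inside *dhgd-1* with 0 shared exon bases. The plot of the levels in the 16 libraries shows each gene on its own axis.

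**Figure D1:**
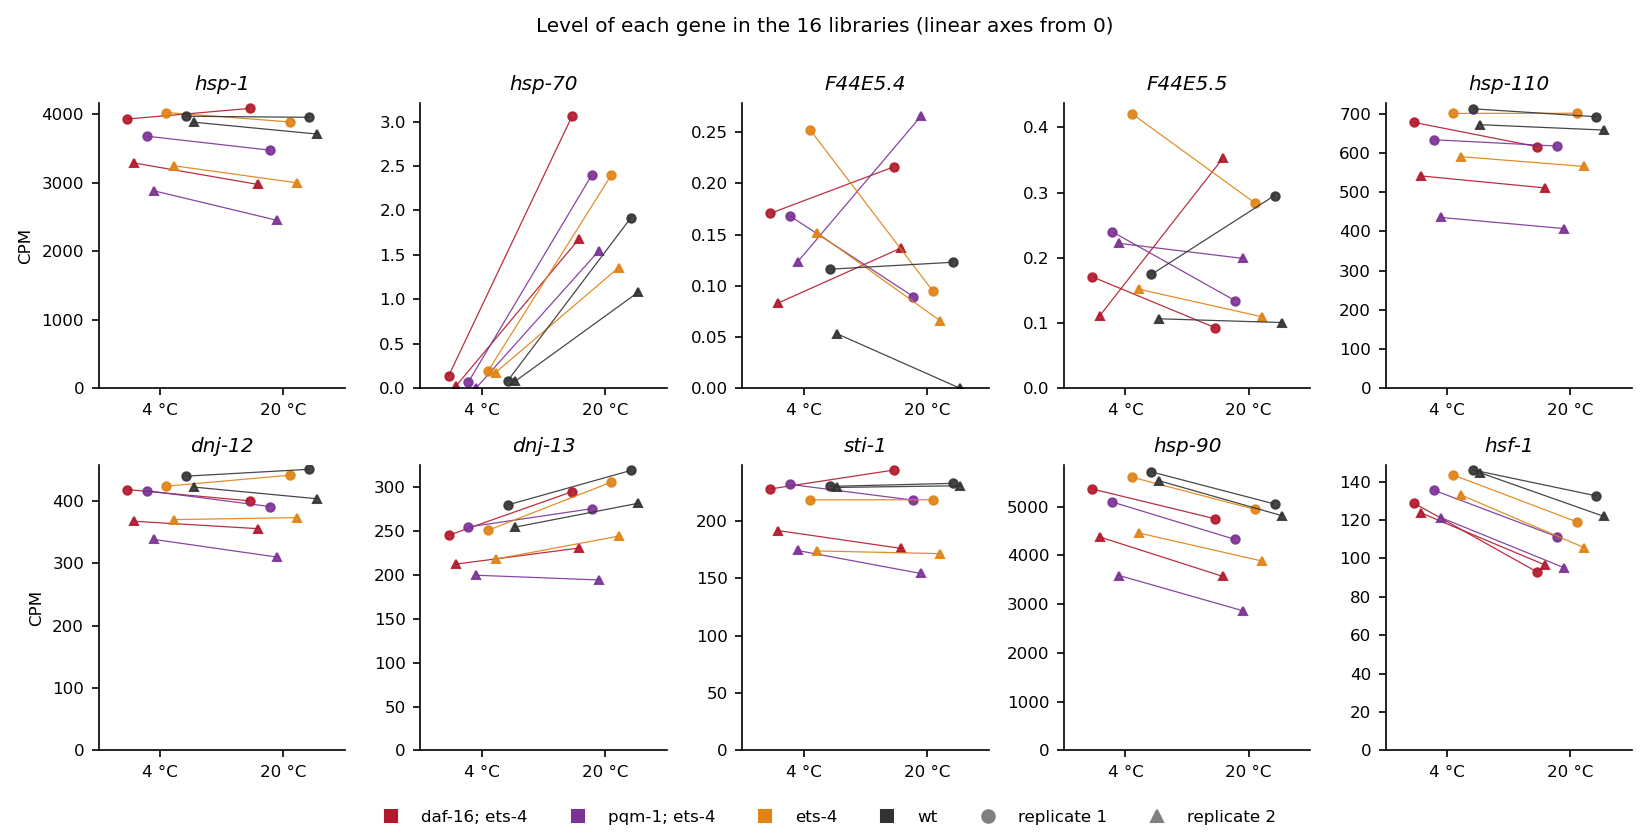
CPM (y axis, linear, from 0) of each of the 10 genes at 4 °C and 20 °C (x axis), with 1 point per library, colour for strain, circles for replicate 1 and triangles for replicate 2. Lines join libraries of the same strain and number. *hsp-70* lies near 0 at 4 °C, at 0.196 CPM or less, and above 1 CPM at 20 °C in all strains, while most replicate 2 points of the abundant genes lie under their replicate 1 points.

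The first comparison was between animals kept at 4 °C and animals at 20 °C of the same strain. With edgeR's quasi-likelihood test and Benjamini-Hochberg adjustment over 15775 genes (adjusted p under 0.05), *hsp-70* fell in the cold in all 4 strains and *hsf-1* rose in the 3 mutant strains. In the mean over the 4 strains, 1 of 9 tested genes of the set was higher (*hsf-1*) and 1 was lower (*hsp-70*). Of all genes tested, 30.9% were called higher and 31.3% lower in that mean, so neither count of the set was above the background. *F44E5.4* had too few counts for the expression filter of edgeR and was not tested. The median log2 change of the 9 genes was 0.03, against -0.04 over all genes.

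*hsp-70* had the largest change of the set. In the *daf-16*-mutated strain it had 5 and 1 counts (0.142 and 0.028 CPM) at 4 °C, against 99 and 86 counts (3.06 and 1.68 CPM) at 20 °C. In the *pqm-1*-mutated strain it had 3 and 0 counts (0.072 and 0 CPM) at 4 °C, against 107 and 70 counts (2.395 and 1.55 CPM) at 20 °C. In *ets-4* it had 7 and 7 counts (0.196 and 0.177 CPM) at 4 °C, against 76 and 62 counts (2.399 and 1.36 CPM) at 20 °C. In wt it had 3 and 3 counts (0.087 and 0.080 CPM) at 4 °C, against 78 and 43 counts (1.92 and 1.08 CPM) at 20 °C. Every library at 4 °C was below every library at 20 °C, whichever strain label it carried, and *hsp-70* was the single gene of the set tested whose 8 and 8 libraries did not overlap. Of all genes tested, 15.2% were lower at 4 °C without overlap.

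The log2 change of *hsp-70* was -4.75 ± 0.78 in the *daf-16*-mutated strain (approximate SE, adjusted p = 0.000659, edgeR), -5.64 ± 0.85 in the *pqm-1*-mutated strain (adjusted p = 0.000388), -3.30 ± 0.70 in *ets-4* (adjusted p = 0.00379) and -4.12 ± 0.77 in wt (adjusted p = 0.00195). The mean over the 4 strains was -4.45 ± 0.39 (adjusted p = 1.52e-06). Lower calls made up 19.5%, 19%, 18.3% and 17.8% of all genes in these 4 strains, in the same order. Fitted changes of genes with so few reads depend on the small count the tool adds, so the counts themselves were also compared. Over the 8 libraries at each temperature, 29 counts at 4 °C stood against 621 at 20 °C, a level 19.4-fold lower in the cold (exact 95% interval of the counts 13.4 to 29.3, counting error only). In same-numbered libraries of the *daf-16*-mutated strain the level was 21.5-fold lower (8.90 to 67.6) and 60.7-fold lower (10.6 to 2426). In the *pqm-1*-mutated strain it was 33.2-fold lower (11.1 to 164) and, where no read was counted at 4 °C, at least 20.9-fold lower, taking 3 counts in that library as the limit that a count of 0 allows. The exact interval of that pair, which also covers the counting error of its 70 reads at 20 °C, starts lower, at 16.6-fold. In *ets-4* it was 12.2-fold lower (5.65 to 31.4) and 7.67-fold lower (3.51 to 19.9), and in wt 22.01-fold (7.26 to 109) and 13.6-fold lower (4.34 to 68.3). The intervals of the strains overlapped, and no difference between strains in this change passed the test. The largest such difference, the change in the *pqm-1*-mutated strain minus that in *ets-4*, was -2.34 ± 1.11 on the log2 scale (adjusted p = 0.998, edgeR). In whole animals, less RNA per cell and fewer cells that hold the transcript cannot be told apart. Intestine markers also fell with cold, with a summed level of 24877 to 32583 CPM at 4 °C, against 42086 to 54926 CPM at 20 °C, and 7 of 8 lower by the same test (0 of 8 higher). The part of this shift in the *hsp-70* result was not tested.

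*hsp-70* lies inside *uggt-2*, on the opposite strand, and shares 0 exon bases with it. *uggt-2* had 0.720 to 2.42 CPM at 4 °C, against 0.568 to 3.74 CPM at 20 °C, so the levels of the host gene overlapped between temperatures where those of *hsp-70* did not. The 2-fold rule of the study, which asks for a 2-fold change in both replicates on the log2(scaled count + 8) scale, also called *hsp-70* lower in all 4 strains and no other gene of the set. It called 11.4% of 20447 genes lower in the *daf-16*-mutated strain, 10.9% in the *pqm-1*-mutated strain, 8.38% in *ets-4* and 8.36% in wt. That scale understates changes of genes with few reads.

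The other inducible HSP70 genes did not follow *hsp-70*. *F44E5.4* and *F44E5.5* stand head to head with 350 bases between them, and they are known as near-identical copies, so that reads kept only when they mapped uniquely may miss or misplace part of their signal. *F44E5.4* had 2 to 9 counts per library at 4 °C, against 0 to 12 at 20 °C, and *F44E5.5* had 4 to 15 counts at 4 °C, against 3 to 18 at 20 °C. The ranges at both temperatures overlapped for each gene. Summed over 8 libraries each, *F44E5.4* had 42 counts at 4 °C and 41 at 20 °C, a ratio of 1.13 (exact 95% interval 0.716 to 1.78). *F44E5.5* had 60 counts at 4 °C and 66 at 20 °C, a ratio of 1.00 (0.694 to 1.44). In edgeR the mean log2 change of *F44E5.5* was -0.04 ± 0.39 (adjusted p = 0.930), and its sign turned positive (0.22) when the replicate number was fitted as a block. A change as large as that of *hsp-70* lies outside these counting intervals.

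*hsp-1*, the constitutive HSP70 gene, was at nearly the same level at both temperatures. It ranged from 2883 to 4026 CPM at 4 °C (median 3783) and from 2451 to 4086 CPM at 20 °C (median 3594). The mean log2 change was 0.07 ± 0.11 (adjusted p = 0.571, edgeR), and 7 of 8 same-numbered pairs were higher at 4 °C. *hsp-110*, whose product is the exchange factor of HSP70, ranged from 435 to 712 CPM at 4 °C (median 653) and from 407 to 701 CPM at 20 °C (median 617), a change of 0.06 ± 0.11 (adjusted p = 0.657) that turned negative (-0.01) with upper quartile scaling or library totals alone. For both genes, the replicates of each mutant strain lay further apart than this mean change.

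The J-domain genes are partners of HSP70, *dnj-12* of class A and *dnj-13* of class B. *dnj-12* ranged from 338 to 440 CPM at 4 °C (median 417) and from 310 to 451 CPM at 20 °C (median 396), a mean change of 0.03 ± 0.07 (adjusted p = 0.693) that also turned negative (-0.04 and -0.03) with upper quartile scaling and with library totals. *dnj-13* had 245 and 212 CPM in the *daf-16*-mutated strain at 4 °C, against 295 and 231 CPM at 20 °C. It had 254 and 199.5 CPM in the *pqm-1*-mutated strain at 4 °C, against 275 and 194 CPM at 20 °C. It was lower in the cold in 7 of 8 same-numbered pairs, the exception being replicate 2 of the *pqm-1*-mutated strain, and its ranges over the 8 libraries at each temperature overlapped. In *ets-4* it had 251 and 218 CPM at 4 °C, against 306 and 244 CPM at 20 °C, and in wt 280 and 254 CPM at 4 °C, against 319 and 281 CPM at 20 °C. The mean log2 change of *dnj-13* was -0.16 ± 0.10 and did not pass the test (adjusted p = 0.165, edgeR). Under a replicate block within each temperature it did pass, at -0.21 ± 0.05 (adjusted p = 0.00527), and so it did in the *daf-16*-mutated strain (-0.25, adjusted p = 0.0317) and *ets-4* (-0.28, adjusted p = 0.0217). It also passed with 1 block shared by both temperatures, with upper quartile scaling or library totals, and without replicate 2 of the *pqm-1*-mutated strain at 20 °C (-0.23, adjusted p = 0.0476). Under the block within each temperature, 32.6% of all genes were called lower in the mean, 27.1% in the *daf-16*-mutated strain and 22.2% in *ets-4*. The shared block called 11389 of 15775 genes in the mean, in either direction.

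*sti-1*, which encodes the adaptor between HSP70 and HSP90, ranged from 174 to 232 CPM at 4 °C (median 223) and from 154 to 244 CPM at 20 °C (median 218). Its mean log2 change was 0.03 ± 0.11 (adjusted p = 0.824), with 4 pairs higher and 4 lower, and it was -0.04 with upper quartile scaling or library totals alone. *hsp-90* had a small upward shift in each pair. It had 5365 and 4381 CPM in the *daf-16*-mutated strain at 4 °C, against 4752 and 3571 CPM at 20 °C, and 5100 and 3589 CPM in the *pqm-1*-mutated strain at 4 °C, against 4329 and 2868 CPM at 20 °C. In *ets-4* it had 5609 and 4461 CPM at 4 °C, against 4948 and 3885 CPM at 20 °C, and in wt 5717 and 5536 CPM at 4 °C, against 5057 and 4817 CPM at 20 °C. In wt both libraries at 4 °C were above both at 20 °C, while in each mutant strain the ranges overlapped. How many of all genes had the order seen in wt was not counted. The level of *hsp-90* was higher at 4 °C in 8 of 8 same-numbered pairs, by 0.18 to 0.32 on the log2 scale, as were 28.5% of all genes tested. The mean change of 0.22 ± 0.12 did not pass the test in edgeR (adjusted p = 0.128), nor with the replicate number as a block within each temperature (0.19, adjusted p = 0.0826). With 1 block shared by both temperatures it passed (0.22, adjusted p = 0.00600), as it did without replicate 1 of the *pqm-1*-mutated strain at 20 °C (0.30, adjusted p = 0.0359). The shared block called 11389 of 15775 genes in the mean, in either direction, so a call under it was common.

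*hsf-1* was the gene of the set that rose. It had 129 and 124 CPM in the *daf-16*-mutated strain at 4 °C, against 93.0 and 96.7 CPM at 20 °C. It had 136 and 121 CPM in the *pqm-1*-mutated strain at 4 °C, against 111 and 95.2 CPM at 20 °C. Both libraries at 4 °C were above both at 20 °C in these strains and in the other two. How many of all genes had this order was not counted. In *ets-4* it had 143 and 133 CPM at 4 °C, against 119.1 and 106 CPM at 20 °C, and in wt 146 and 145 CPM at 4 °C, against 133 and 122 CPM at 20 °C. All 8 same-numbered pairs were higher in the cold, by 0.14 to 0.47 on the log2 scale, as were those of 28.5% of all genes tested. The 8 libraries at 4 °C overlapped the 8 at 20 °C across strains. The log2 change was 0.41 ± 0.10 in the *daf-16*-mutated strain (adjusted p = 0.00552, edgeR), 0.31 ± 0.10 in the *pqm-1*-mutated strain (adjusted p = 0.0229), 0.30 ± 0.10 in *ets-4* (adjusted p = 0.0315) and 0.19 ± 0.10 in wt, which did not pass (adjusted p = 0.157). In wt it did pass with 1 replicate block shared by both temperatures (0.19, adjusted p = 0.0377) and with the 4 wt libraries alone (0.19, adjusted p = 0.0174). The shared block called 6568 of 15775 genes in wt, in either direction. Without a block, higher calls made up 19%, 18%, 15% and 12.9% of all genes in the 4 strains, in the order given. The mean over the 4 strains was 0.30 ± 0.05 (adjusted p = 0.000168).

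The calls of *hsf-1* in *ets-4* and in the *pqm-1*-mutated strain did not hold in every fit. In *ets-4* the call was lost without an expression filter (0.30, adjusted p = 0.0677), without replicate 1 at 4 °C (0.24, adjusted p = 0.180), without replicate 2 at 4 °C (0.35, adjusted p = 0.0591) and without replicate 2 at 20 °C (0.23, adjusted p = 0.236). In the *pqm-1*-mutated strain it was lost without replicate 1 at 4 °C (0.16, adjusted p = 0.339) and without replicate 2 at 20 °C (0.18, adjusted p = 0.296), and with its 4 libraries alone (0.31, adjusted p = 0.198). The call in the *daf-16*-mutated strain and the mean over the 4 strains passed in all alternative fits run. The change in *ets-4* minus that in wt was 0.11 ± 0.13 (adjusted p = 0.99994), so a difference between a called and an uncalled strain was not shown. Germline markers moved in the same direction, with 6 of 8 called higher and 0 lower in the mean, and a summed level of 3551 to 3850 CPM at 4 °C, against 2881 to 3543 CPM at 20 °C. The part of this shift in the rise of *hsf-1* was not tested.

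**Figure D2:**
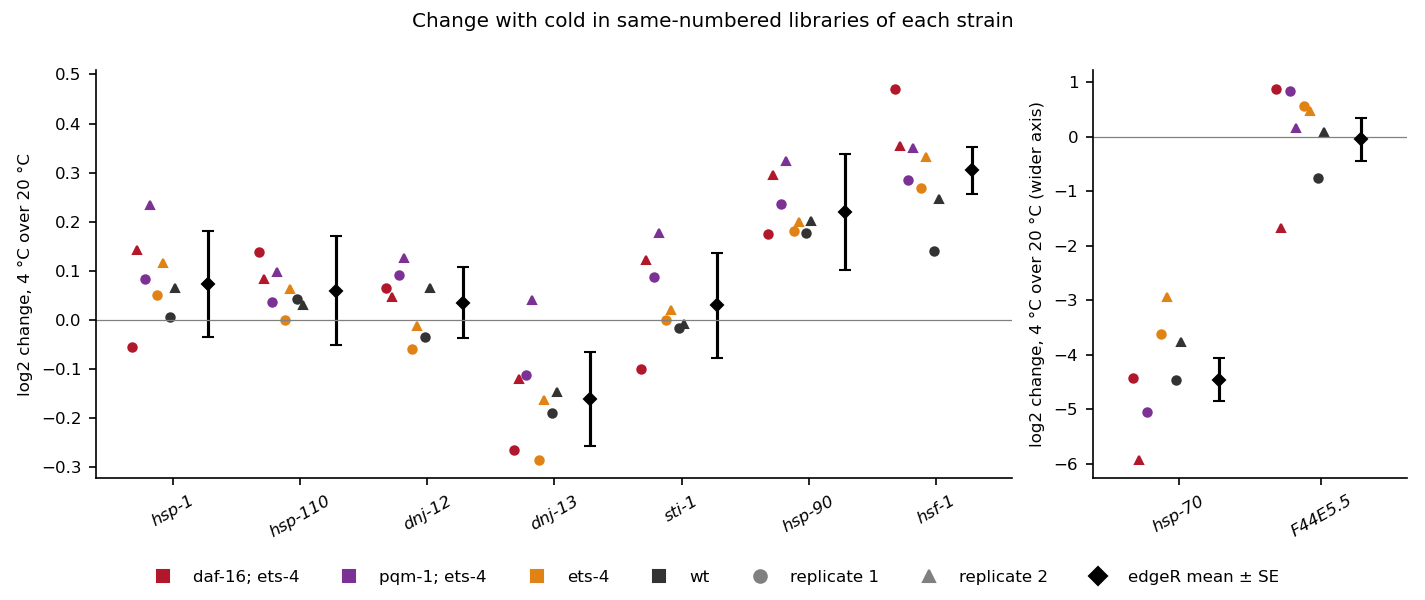
Log2 change of each tested gene, 4 °C over 20 °C (y axis), in same-numbered libraries of each strain, with colour for strain and symbol for replicate number. Black diamonds give the edgeR mean over the 4 strains with its approximate SE. The right panel has a wider axis and lacks the *hsp-70* pair with no read at 4 °C. All 8 *hsf-1* and *hsp-90* points lie above 0, and all *hsp-70* points drawn lie at -2.94 or lower.

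Other chaperone groups were counted in the mean over the 4 strains, each beside the 30.9% of all genes called higher and 31.3% called lower. Of the small heat shock genes of the *hsp-16* loci, another class driven by HSF-1, 2 passed the filter and both fell. *hsp-16.41* averaged 0.254 CPM at 4 °C and 0.964 CPM at 20 °C (log2 -2.03 ± 0.36, adjusted p = 0.000474) and *hsp-16.2* 0.291 CPM at 4 °C and 0.864 CPM at 20 °C (-1.54 ± 0.31, adjusted p = 0.00111). *hsp-16.48* averaged 0.00649 CPM at 4 °C and 0 CPM at 20 °C. These genes have close copies, which unique mapping may hide. Per strain, both passed in the *pqm-1*-mutated strain and 0 of 2 in each of the other strains. Under the block, 2 of 2 also passed in the *daf-16*-mutated strain and 1 of 2 in *ets-4*.

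Of the relatives of HSP70 and HSP90 in the endoplasmic reticulum and mitochondria, 6 of 8 rose and 1 fell, with a median log2 change of 0.27. *hsp-4*, the inducible BiP gene of the endoplasmic reticulum, averaged 815 CPM at 4 °C and 520 CPM at 20 °C (0.66 ± 0.24, adjusted p = 0.0349). *enpl-1*, which encodes the HSP90 of that compartment, averaged 857 CPM at 4 °C and 681 CPM at 20 °C (0.33 ± 0.07, adjusted p = 0.000879). *hsp-6*, the mitochondrial HSP70 gene, averaged 729 CPM at 4 °C and 750 CPM at 20 °C (-0.04 ± 0.07, adjusted p = 0.593). The member that fell was *hsp-3*, the second BiP gene, at 524 CPM at 4 °C and 727 CPM at 20 °C (-0.48 ± 0.08, adjusted p = 0.000413). It and the genes below given without a level per temperature were named after their values were seen. The number called higher was 5 with upper quartile scaling or library totals alone. Whether this group differs from the cytosolic one was not tested.

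Of 8 other co-chaperones of HSP90, 2 rose (*fkb-6*, *chn-1*) and 1 fell (*pph-5*, log2 -0.24), with a median of 0.09. *daf-41*, the p23 gene, averaged 548 CPM at 4 °C and 514 CPM at 20 °C (0.09 ± 0.08, adjusted p = 0.320), *fkb-6* 396 CPM at 4 °C and 341 CPM at 20 °C (0.22 ± 0.08, adjusted p = 0.0341) and *ahsa-1*, the relative of the ATPase activator AHA1, 321 CPM at 4 °C and 303 CPM at 20 °C (0.08 ± 0.11, adjusted p = 0.533). With upper quartile scaling 0 of 8 were called higher, and with library totals 1. Of 8 other co-chaperones of HSP70, 3 rose (*dnj-5*, *hip-1*, *dnj-16*) and 1 fell (*dnj-24*, log2 -1.54), with a median of 0.11. Under the replicate block 2 fell, and with upper quartile scaling 2 rose. *dnj-5* averaged 540 CPM at 4 °C and 442 CPM at 20 °C (0.29 ± 0.05, adjusted p = 0.000477), *dnj-19* 430 CPM at 4 °C and 396 CPM at 20 °C (0.12 ± 0.08, adjusted p = 0.204) and *hip-1* 391 CPM at 4 °C and 340 CPM at 20 °C (0.20 ± 0.06, adjusted p = 0.0164).

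The CCT chaperonin, a ring that folds actin and tubulin, had 4 of 8 subunits called higher (*cct-2*, *cct-4*, *cct-5*, *cct-6*) and 0 lower (median 0.21). *cct-5* averaged 976 CPM at 4 °C and 798 CPM at 20 °C (0.29 ± 0.09, adjusted p = 0.0163), *cct-4* 614 CPM at 4 °C and 517 CPM at 20 °C (0.25 ± 0.10, adjusted p = 0.0390) and *cct-6* 550 CPM at 4 °C and 464 CPM at 20 °C (0.25 ± 0.08, adjusted p = 0.0180). With upper quartile scaling 2 were called higher, and with library totals 3. Prefoldin, which hands substrates to CCT, had 0 of 6 subunits higher and 1 lower (*pfd-4*, log2 -0.16), with a median of 0.04 that was -0.03 with upper quartile scaling and -0.02 with library totals. The block gave 1 higher and 2 lower, upper quartile scaling and library totals 2 lower, and RLE scaling 0 lower. *pfd-6* averaged 135 CPM at 4 °C and 121 CPM at 20 °C (0.16 ± 0.07, adjusted p = 0.0669), *pfd-5* 93.8 CPM at 4 °C and 90.8 CPM at 20 °C and *pfd-1* 92.7 CPM at 4 °C and 90.1 CPM at 20 °C, neither of which passed.

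Among 5 regulators of HSF-1, 3 rose (*akt-1*, *sir-2.1*, *ddl-1*) and 1 fell (*ddl-2*, log2 -0.20), with a median of 0.37. With the block, and with RLE scaling, 0 fell. *akt-1*, a kinase gene of the insulin pathway, averaged 320 CPM at 4 °C and 239 CPM at 20 °C (0.43 ± 0.05, adjusted p = 1.23e-05). *sir-2.1*, a sirtuin gene, averaged 144 CPM at 4 °C and 109 CPM at 20 °C (0.41 ± 0.05, adjusted p = 1.19e-05). *hsb-1*, the gene of the HSF-1 binding protein that restrains it, averaged 63.4 CPM at 4 °C and 60.7 CPM at 20 °C (0.06 ± 0.04, adjusted p = 0.195).

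The second comparison was between strains kept at the same temperature. At 4 °C, 0 of the 7 tested genes of the set passed the edgeR test in any of the 3 comparisons, with 0 at an unadjusted p under 0.05 in that fit and 0 called by DESeq2. *hsp-70*, *F44E5.4* and *F44E5.5* did not pass the filter at 4 °C. Few genes of the whole table passed either: 0.158% of 14571 genes in the *daf-16*-mutated strain against *ets-4*, 0.048% in the *pqm-1*-mutated strain against *ets-4* and 0% in *ets-4* against wt, where 0 genes passed in edgeR, 2025 had an unadjusted p under 0.05 and DESeq2 called 261. With the replicate number as a block, 0 genes of the set were called as well, with 1, 2 and 2 at an unadjusted p under 0.05, while the whole-table counts of calls were 562, 860 and 1414 genes in the same order.

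All 7 tested genes had a log2 difference below 0 in *ets-4* against wt at 4 °C, from -0.24 (*sti-1*) to -0.08 (*hsf-1*), with a median of -0.13, whereas 48.2% of all genes were below 0. Differences below 0 were also common in the other strain comparisons. At 4 °C, 6 of 7 were below 0 in the *daf-16*-mutated strain (48.1% of all genes) and 6 of 7 in the *pqm-1*-mutated strain (49.8%), both against *ets-4*. At 20 °C there were 5 of 9 with the *daf-16*-mutated label (48.2% of all genes) and 8 of 9 with the *pqm-1*-mutated label (47.5%), both against *ets-4*. In *ets-4* against wt at 20 °C there were 8 of 9 (47.5%). These comparisons share the *ets-4* libraries. Tissue markers moved in *ets-4* against wt at 4 °C as well. The median log2 difference was 0.37 for 8 body wall muscle markers and -0.20 for 10 oocyte and eggshell markers. The replicate block called 8 muscle markers higher and 3 oocyte and eggshell markers lower, where the fit without it called 0 of either. The medians of the other lists were 0.88 for sperm, 0.31 for epidermis, 0.27 for intestine, 0.25 for neuron, -0.12 for embryo and -0.10 for germline markers. The part of these markers in the chaperone differences was not tested. *sti-1* had 218 and 174 CPM in *ets-4*, against 230 and 229 CPM in wt (-0.24 ± 0.17, adjusted p = 0.526). *dnj-13* had 251 and 218 CPM in *ets-4*, against 280 and 254 CPM in wt (-0.20 ± 0.14, adjusted p = 0.519). In both cases the 2 libraries of *ets-4* lay below those of wt. The same held for *hsf-1*, with 143 and 133 CPM in *ets-4*, against 146 and 145 CPM in wt. How many of all genes had this order was not counted. Within same-numbered pairs *dnj-13* differed by -0.16 and -0.22 on the log2 scale, and the edgeR fit with the replicate block gave -0.20 ± 0.06 (adjusted p = 0.0604), which did not pass. *sti-1* differed by -0.08 and -0.40 within pairs and by -0.25 ± 0.09 under the block (adjusted p = 0.118). *hsp-90* differed by -0.17 ± 0.20 and *hsp-1* by -0.12 ± 0.16, with overlapping ranges.

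In the *pqm-1*-mutated strain, *hsp-110* had 633 and 435 CPM at 4 °C, against 701 and 590 CPM in *ets-4* (-0.28 ± 0.20, adjusted p = 0.646). *hsp-90* had 5100 and 3589 CPM in the *pqm-1*-mutated strain, against 5609 and 4461 CPM in *ets-4* (-0.22 ± 0.20, adjusted p = 0.702). Without replicate 2 of the *pqm-1*-mutated strain the difference in *hsp-90* was 0.02. In the *daf-16*-mutated strain against *ets-4* the 7 differences lay between -0.14 (*hsf-1*) and 0.09 (*sti-1*). *hsf-1* had 129 and 124 CPM in the *daf-16*-mutated strain, against 143 and 133 CPM in *ets-4*, an ordering without overlap (-0.14 ± 0.07, adjusted p = 0.670). The share of all genes with such an ordering was not counted.

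At 20 °C, 0 of 9 tested genes passed in any comparison in edgeR, DESeq2 or the fit with the block within each temperature. With 1 block shared by both temperatures, *hsf-1* was called lower in the libraries with the *daf-16*-mutated label (-0.24, adjusted p = 0.0463) and *dnj-12* in those with the *pqm-1*-mutated label, each against *ets-4*. The share of all genes called under that shared block is not given here. Without a block, 0.0824% of all genes passed in the libraries with the *daf-16*-mutated label against *ets-4*. The shares were 0.0444% in those with the *pqm-1*-mutated label against *ets-4* and 0.133% in those labelled *ets-4* against wt. *hsf-1* was the only gene of the set with an unadjusted p under 0.05 in edgeR without the block, whereas the block within each temperature gave 1, 4 and 2 such genes in the same order. *hsf-1* had 93.0 and 96.7 CPM in the libraries with the *daf-16*-mutated label, against 119.1 and 106 CPM in *ets-4* (-0.24 ± 0.10, adjusted p = 0.386). Both wt libraries had more *hsf-1* than any mutant library at each temperature, by little. The nearest values were 145 CPM in wt and 143 CPM in *ets-4* at 4 °C, and 122 and 119.1 CPM at 20 °C. In edgeR *ets-4* against wt did not pass at 4 °C (-0.08, adjusted p = 0.587) or at 20 °C (-0.18, adjusted p = 0.660). How many of all genes had this order was not counted, and at 20 °C it rests on the labels. *hsp-70* differed by 0.34 ± 0.60, 0.08 ± 0.60 and 0.32 ± 0.60 on the log2 scale in these 3 comparisons, each smaller than its error. No difference between strains in the cold effect passed for any gene of the set (0 of 9 in each of 3 comparisons in edgeR without the block, 0 at an unadjusted p under 0.05, 0 by DESeq2). Over all genes 0% passed in these 3 comparisons in edgeR without the block, with 428, 560 and 241 at an unadjusted p under 0.05 and 7, 10 and 1 called by DESeq2, for the *daf-16* and *pqm-1* mutated strains minus *ets-4* and *ets-4* minus wt. With the block within each temperature, *hsp-70* had an unadjusted p under 0.05 in the *pqm-1*-mutated strain minus *ets-4*, as did 1427 of all genes. That difference was -2.43 ± 0.80 on the log2 scale and did not pass (adjusted p = 0.354, edgeR with the block).

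**Figure D3:**
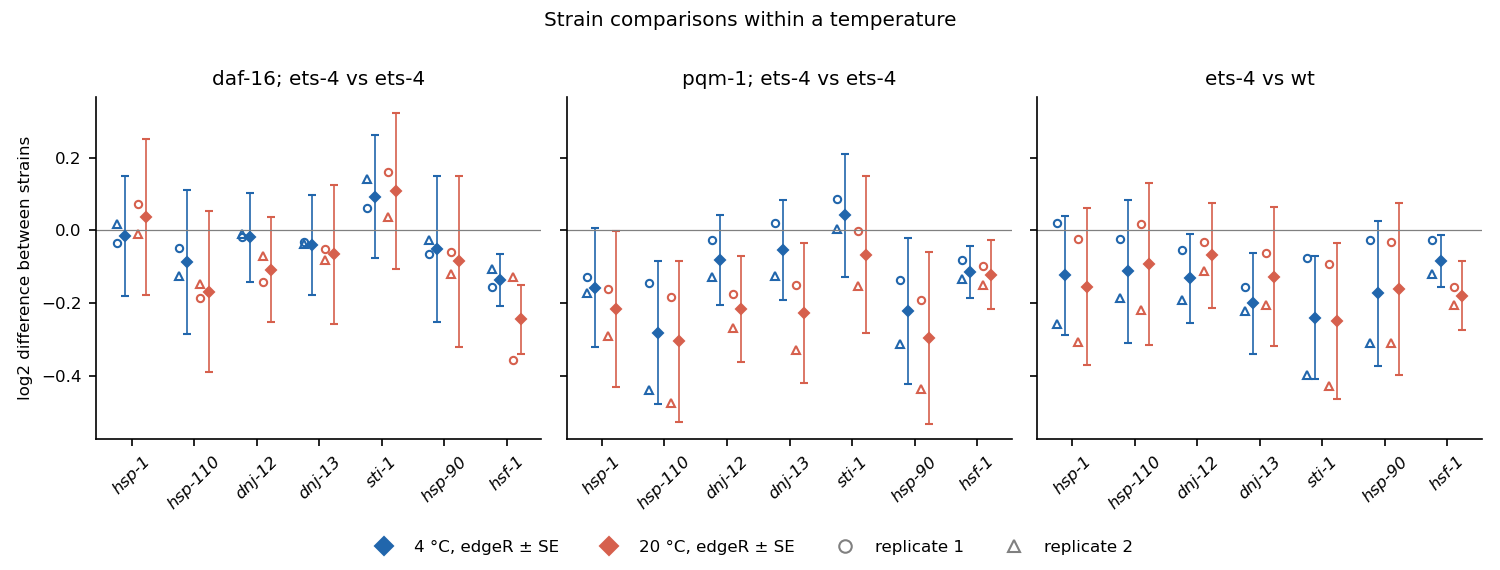
Log2 difference between strains (y axis) at 4 °C (blue) and 20 °C (red) for the 7 genes tested at both temperatures. Filled diamonds with bars give the edgeR estimate and its approximate SE, and open symbols the same-numbered libraries. At 4 °C the estimates of *ets-4* against wt lie between -0.24 and -0.08, and 0 of the points shown passed the test.

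The set also differed between replicate numbers. Replicate 2 was below replicate 1 in 8 of 8 groups for *hsp-1*, *hsp-110*, *hsp-90*, *dnj-12*, *dnj-13* and *sti-1*, and also for *hsp-70*, which makes 7 of 9 tested genes, against 1698 of all 15775 genes tested. *hsp-110* in the *pqm-1*-mutated strain gave the widest gap among the abundant genes, with replicate 2 at 68.7% of replicate 1 at 4 °C and 65.9% at 20 °C. *hsp-90* replicate 2 was at 70.4% and 66.25% of replicate 1 there, at 81.7% and 75.2% in the *daf-16*-mutated strain, at 79.5% and 78.5% in *ets-4*, and at 96.8% and 95.2% in wt, at 4 °C and 20 °C in turn. The gap was thus narrowest in wt. *sti-1* had almost none there, at 99.6% and 99.1%. *hsf-1* followed less closely, with replicate 2 lower in 7 of 8 groups and at 85.4 to 104% of replicate 1.

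Markers of germ cells and of somatic tissues differed between the same libraries. The summed level of 8 sperm markers was higher in replicate 2 in 8 of 8 groups, by 1.29 to 4.19 times, with 7 or 8 of the 8 markers higher in each group, and it ranged from 5.44 to 64.8 CPM at 4 °C and from 6.33 to 123 CPM at 20 °C. The summed level of 10 oocyte and eggshell markers was lower in replicate 2 in 8 of 8 groups, at 0.763 to 0.983 times replicate 1, and that of 8 germline markers at 0.847 to 0.994 times. The sum of embryo markers was lower in replicate 2 in 7 of 8 groups and that of intestine markers in 6 of 8. The sums of body wall muscle, epidermis and neuron markers were each higher in 7 of 8. Counted singly, 5 to 8 of the 8 intestine markers were higher in replicate 2 in each group, unlike their sum. These counts were 2 to 6 of 8 for epidermis, 3 to 8 for muscle, 5 to 8 for neuron and 1 to 5 for embryo markers. They were 0 to 3 of 8 for germline and 0 to 5 of 10 for oocyte and eggshell markers. The library with the most sperm marker signal, replicate 2 of the *pqm-1*-mutated strain at 20 °C, also had the lowest summed level of the 10 genes, 6482 CPM, against 10842 and 10226 CPM in wt at 20 °C. Sperm markers and the chaperone sum did not run in parallel everywhere: replicate 1 with the *daf-16*-mutated label at 20 °C had 61.6 CPM of sperm markers and a chaperone sum of 10489 CPM, between those of wt at 20 °C. The part of these markers in the chaperone levels was not tested. With both replicate 2 libraries of the *pqm-1*-mutated strain left out, a fit chosen after seeing the data, the mean cold change of *hsp-70* was -4.31 (adjusted p = 2.03e-06) and that of *hsf-1* 0.28 (adjusted p = 0.000468), while *hsf-1* in the *pqm-1*-mutated strain was no longer called (0.27, adjusted p = 0.140).

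**Figure D4:**
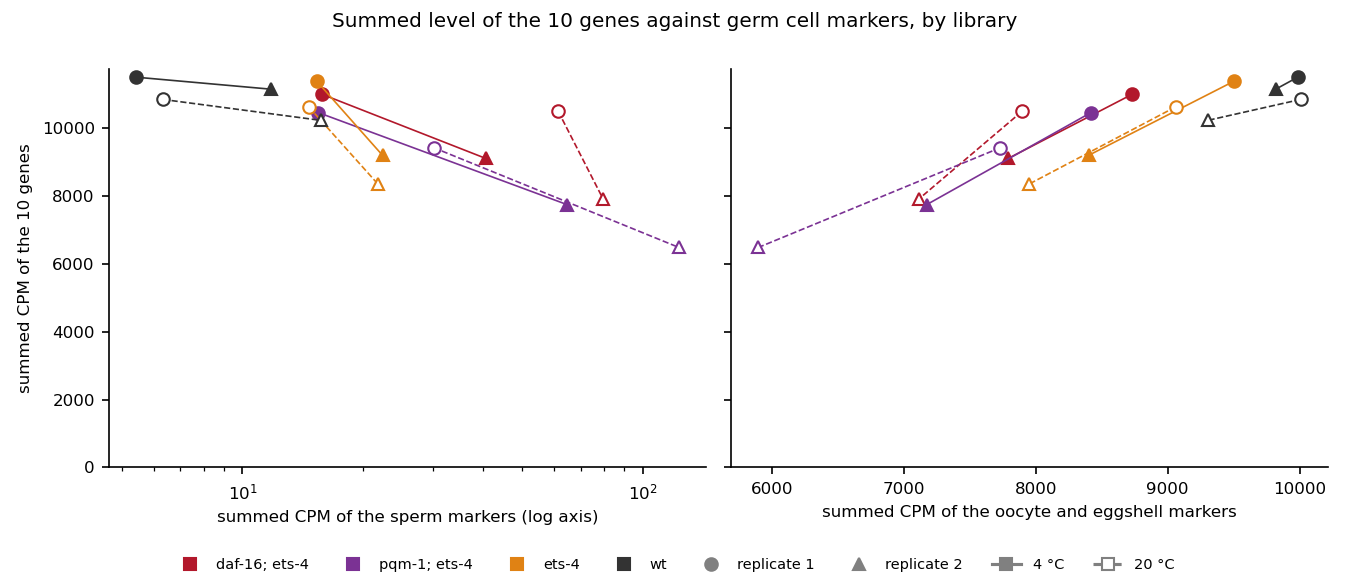
Summed CPM of the 10 genes (y axis, from 0) against the summed CPM of 8 sperm markers (left, log x axis) and of 10 oocyte and eggshell markers (right), with 1 point per library. Colour gives the strain, symbol the replicate number, filled points and full lines 4 °C, open points and dashed lines 20 °C. Each line joins the replicates of a group, and replicate 2 has the lower chaperone sum in all 8 groups.

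The genes with the most similar pattern were sought by Pearson correlation of log2(CPM + 1) over the 16 libraries, among 8837 genes outside the set with a mean of at least 5 CPM. Libraries of one replicate number share the differences described above, so these values are a description. For *hsp-90* they were the proteasome subunit genes *rpt-2* (r = 0.987), *pas-4* (r = 0.987) and *pas-1* (r = 0.981). *rpt-2* averaged 458 CPM at 4 °C and 401 CPM at 20 °C, *pas-4* 286 CPM at 4 °C and 255 CPM at 20 °C, and *pas-1* 276 CPM at 4 °C and 245 CPM at 20 °C. For *hsp-70* they were *fdgt-1* (r = 0.979), *cpt-5* (r = 0.977) and *Y51A2D.18* (r = 0.977). Of these *cpt-5* had the largest ratio between temperatures, with 0.490 CPM at 4 °C and 27.5 CPM at 20 °C. For *hsf-1* they were *ZK829.9* (r = 0.993), *Y77E11A.7* (r = 0.991) and *tbc-9* (r = 0.987). *tbc-9* averaged 157 CPM at 4 °C and 129 CPM at 20 °C.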

How the data were processed

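Poly-A RNA of whole animals was sequenced as stranded TruSeq libraries with single-end reads of 50 cycles. The authors mapped the reads to WBcel235 with STAR, kept uniquely mapped reads, and deposited raw counts of reads over exons of protein-coding genes. The annotation release and the use of strand in counting are not given in the sources used here. The labels gave each library its strain, temperature and replicate number. Gene symbols and coordinates came from Ensembl release 115, in which 20159 of 20447 genes (98.6%) were found. No 2 libraries held identical counts.

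Counts were analysed with edgeR 4.0.16 in R 4.3.3 (TMM, filterByExpr, robust quasi-likelihood test, Benjamini-Hochberg adjustment over all tested genes). Cold effects, comparisons at 20 °C and their differences came from a fit of 16 libraries, and comparisons at 4 °C from a fit of 8. Standard errors are approximate: the log2 change divided by the square root of F. The exact intervals of counts cover counting error only, which depth sets. They leave out the spread between replicate libraries, which was the wider of these for abundant genes such as *hsp-90*. On simulated counts with 4-fold changes in 200 genes, the fit of cold in wt recovered 99%, with 3.41% of calls false, over 15325 genes. The simulated spread was the same for every gene, without replicate differences, and the changed genes were not ones with few reads. These figures thus do not cover small changes, genes with few reads such as *hsp-70*, or the replicate differences in the real libraries.

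The replicate numbers pair the libraries: deviations from group means correlated between same-numbered libraries in all 28 pairs of groups (0.29 to 0.81, over 11506 genes with a mean count of at least 50). A fit with the replicate number as a block was therefore run beside each test. The study calls the replicates biological and describes those of its survival assays as separate batches of worms on separate days. The passages read here do not say this of the sequenced animals, so p-values measure the spread between these libraries, part of which may be technical. Alternatives were other scalings, filters and sets of libraries, DESeq2 1.42.0, no robust estimation, leaving out each library, and other settings of the 2-fold rule.

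The 10 genes, the other lists and the tests were chosen with earlier results of these data known. Named are all 10 genes, the 3 genes of each chaperone list with the highest mean CPM, the 3 genes most similar in pattern to *hsp-90*, *hsp-70* and *hsf-1*, and the mutated genes. Beyond this rule, *hsp-3*, *chn-1*, *pph-5*, *dnj-16*, *dnj-24*, *cct-2*, *pfd-4*, *ddl-1* and *ddl-2* were named after their values were seen, and genes that overlap a member for their position. Of 6 genes listed for the *hsp-16* loci, 4 were matched.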

Additional observations from a re-analysis of the deposited data

Results flagged for a closer look

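The heat-inducible HSP70 gene *F44E5.4*, which had too few reads for the edgeR test, moved in opposite directions with cold in 2 strains. On the log2 scale the level at 4 °C against 20 °C was -0.34 and -0.72 in the replicates of the *daf-16*-mutated strain, with 6 and 3 counts at 4 °C and 7 and 7 at 20 °C. It was 1.42 and 1.21 in the replicates of *ets-4*, with 9 and 6 counts at 4 °C and 3 and 3 at 20 °C. The difference was not tested. The counting interval of each of these 4 ratios includes no change, and the reads of this gene cannot be fully told apart from those of *F44E5.5*.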

How the results depend on the processing

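*hsp-70* fell with cold in each strain and in the mean under all alternatives run, from -5.37 to -4.23 in the mean (adjusted p 2.67e-23 to 1.91e-05), and *hsf-1* rose in the mean from 0.23 to 0.33 (adjusted p 1.32e-08 to 0.00125). The number of genes of the set called higher with cold in wt was 0, but 1 with a replicate block shared across temperatures (*hsf-1*) and 2 with only the 4 wt libraries (*hsf-1* and *hsp-90*). In *ets-4* it was 1, but 0 without a filter and 0 to 1 when each library was left out. In the *pqm-1*-mutated strain it was 1, but 0 with only its 4 libraries, 0 with both of its libraries numbered 2 left out and 0 to 1 when each library was left out. In the mean it was 1, but 2 with the shared block and 1 to 2 when each library was left out, the added gene being *hsp-90* (0.22, adjusted p = 0.00600 with the shared block, and 0.30, adjusted p = 0.0359 without replicate 1 of the *pqm-1*-mutated strain at 20 °C). The number called lower was 1 in *ets-4*, the *daf-16*-mutated strain and the mean, but 2 with the replicate block in all of these and with the shared block in *ets-4* and the mean. In the mean it was also 2 with upper quartile scaling or library totals alone, and 1 to 2 when each library was left out. The added gene was *dnj-13*. The shared block called 1 gene lower (*hsf-1*, -0.24, adjusted p = 0.0463) in the *daf-16*-mutated strain against *ets-4* at 20 °C, and 1 (*dnj-12*) in the *pqm-1*-mutated strain against *ets-4*, where 0 had been called. With a pseudocount of 1 the 2-fold rule called 1 gene (*hsp-70*) lower in the *pqm-1*-mutated strain against *ets-4* at 4 °C, against 0. The replicate block within each temperature changed no other call of the set. The cause of these changes was not tested.

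Signs turned for changes near 0. The mean cold change of *F44E5.5* was 0.2235 with the replicate block, 0.0288 with both *pqm-1*-mutated libraries numbered 2 left out, and -0.2661 to 0.2799 when each library was left out. With upper quartile scaling and library totals it was -0.0107 and -0.0067 for *hsp-110*, -0.0365 and -0.0319 for *dnj-12*, and -0.041 and -0.0363 for *sti-1*, which was -0.0086 with the block. Leaving out each library gave -0.0358 to 0.1424 for *hsp-110*, -0.0265 to 0.0789 for *dnj-12* and -0.0473 to 0.1012 for *sti-1*, -0.3659 to 0.0041 for *dnj-13* in the *daf-16*-mutated strain, and -0.4919 to 0.0176 for *hsp-90* in the *pqm-1*-mutated strain against *ets-4* at 4 °C.

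Over all genes, the counts called ranged with the setting from 3187 to 6568 for cold in wt (4844 as tested), 3437 to 7005 in *ets-4* (5252), 4203 to 8558 in the *daf-16*-mutated strain (6075) and 2052 to 8158 in the *pqm-1*-mutated strain (5848). In the mean cold change over the 4 strains they ranged from 8770 to 11389 (9802). At 4 °C they ranged from 0 to 562 in the *daf-16*-mutated strain against *ets-4* (23), 0 to 860 in the *pqm-1*-mutated strain (7) and 0 to 1414 in *ets-4* against wt (0). At 20 °C they ranged from 2 to 1608 (13), 0 to 2909 (7) and 3 to 317 (21) in the same order. In each case the highest count came from a replicate block. Scaling moved the median change of all genes by at most 0.07. Counts of reads limit *hsp-70*, *F44E5.4* and *F44E5.5*, with 0 to 107 per library. Comparisons of shared HSP70 sequence, of promoter motifs and of levels per coding length were not run.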
